A study of Mus musculus with 12 samples.

Results

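Cathepsin D, cathepsin S, cystatin F, progranulin, CD68 and lysozyme are proteins of the lysosomes of phagocytes, and their genes Ctsd, Ctss, Cst7, Grn, Cd68 and Lyz2 are described here in whole mouse brain after a transient stroke. The 6 genes were chosen by name, as lysosomal proteases, their inhibitor and lysosomal proteins, from the 757 endogenous genes of a glial profiling panel. Earlier results of these data were known when they were chosen. Their shares beside those of all genes therefore describe them and are no independent test. Counts came from a hybridisation assay (nCounter) in which each RNA molecule captured by a colour-coded probe was counted without amplification. The 12 samples were individual male C57BL/6 mice in 3 groups of 4. The flox sham group was CD73flox mice with sham surgery, the flox tMCAO group was CD73floxed mice whose middle cerebral artery was transiently occluded for 50 min (tMCAO), and the CD73ko tMCAO group was CD73ko mice with the same occlusion. Brains were taken 3 days after surgery in every group. CD73 is the cell-surface enzyme, encoded by Nt5e, that converts extracellular AMP to adenosine. Nt5e has no row in the counts used here, so the genotype could not be checked, and which cells lack CD73 and the ages of the mice are not given in the sources used here. No sham-operated CD73ko mice were analysed here, so CD73ko and flox can be compared after tMCAO alone.

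The counts of the 770 genes of the panel summed to between 724655 and 848853 in 11 libraries and to 293589 in flox sham replicate 4. A count was called above background where it exceeded the mean plus 2 SD of the 8 negative control probes of its library, and 712 of the 757 endogenous genes did so in 3 or more mice of a group. All 6 lysosomal genes were among them. Counts are given below as normalised counts, which are counts scaled to a common library size (TMM). A probe's count depends on its own efficiency, so levels are compared between mice and not between genes. Of the markers of other cells, the summed level of 10 neuron markers, led by Snap25, ranged from 22754 to 25354 in the shams and from 20324 to 22257 after flox tMCAO. The test used below called 5 of these 10 lower and 0 higher. The summed level of 6 oligodendrocyte markers ranged from 17426 to 18938 in the shams. After flox tMCAO it ranged from 13214 in replicate 3, below every sham, to 22217 in replicate 4. The sums of 6 astrocyte markers, led by Glul, were 15506 to 16266 in the shams and 18018 to 23976 after flox tMCAO. Gfap was the 1 marker of these 6 called higher by the test used below, at 937 ± 175 and 3824 ± 688 (SD, n = 4). Glul was at 9972 ± 351 and 10430 ± 2199 and was not called.

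Lysosomes break down material that a cell has taken up or made itself. Cathepsins are the proteases that work in this acid compartment, and cystatins are proteins that block the cysteine proteases among them. In the brain, microglia and the blood-derived phagocytes that enter after a stroke have an active lysosomal system and clear dying cells and myelin with it, while neurons and other cells also need cathepsin D and progranulin for the turnover of their own material.

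The 250 bases before the start of Ctsd, Grn and Cd68 are printed because each holds the same short motif at more than 1 place, and the motif differs between them. The sequences are from RefSeq, build GRCm38.p6, written 5′ to 3′ on the strand of the gene, with the motifs in capitals. Those of Ctsd lie at chr7:142387828-142388077 on the minus strand, those of Grn at chr11:102430257-102430506 on the plus strand and those of Cd68 at chr11:69666171-69666420 on the minus strand.
Ctsd: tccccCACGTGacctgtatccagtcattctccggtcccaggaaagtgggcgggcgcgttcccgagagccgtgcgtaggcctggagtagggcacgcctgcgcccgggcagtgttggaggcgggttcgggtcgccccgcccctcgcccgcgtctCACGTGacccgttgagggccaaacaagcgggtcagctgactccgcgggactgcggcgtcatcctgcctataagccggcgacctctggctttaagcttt
Grn: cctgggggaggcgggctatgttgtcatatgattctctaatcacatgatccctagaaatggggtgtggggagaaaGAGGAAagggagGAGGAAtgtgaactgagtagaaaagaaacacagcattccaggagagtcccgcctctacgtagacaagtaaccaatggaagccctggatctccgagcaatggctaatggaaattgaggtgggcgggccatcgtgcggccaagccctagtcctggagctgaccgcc
Cd68: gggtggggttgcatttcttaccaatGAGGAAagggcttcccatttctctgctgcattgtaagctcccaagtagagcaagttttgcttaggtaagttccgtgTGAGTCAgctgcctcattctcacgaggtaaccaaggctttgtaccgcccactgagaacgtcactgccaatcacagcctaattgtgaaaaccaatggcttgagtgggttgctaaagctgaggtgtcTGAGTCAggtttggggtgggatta
Both strands were searched for 3 motifs, whose letters do not overlap each other in these windows. CACGTG is the E-box that the lysosomal regulator TFEB is known to bind. GAGGAA is the PU-box, a form of the site bound by the myeloid factor PU.1, and TGANTCA is the site of AP-1. Other forms of these sites were not searched for, so a window without these letters can still hold such a site. Ctsd held CACGTG at 245 to 240 and at 98 to 93 bases before its start. Grn held GAGGAA at 176 to 171 and at 164 to 159 bases before its start. Cd68 held TGAGTCA, a form of TGANTCA, at 149 to 143 and at 24 to 18 bases, and GAGGAA at 225 to 220 bases. Of the other members, Ctss held GAGGAA at 1 place, and neither the Cst7 nor the Lyz2 window held any of the 3. Among 32851 windows of the same length, CACGTG was found in 6.02% (at 2 or more places in 0.429%), GAGGAA in 23.3% (3.54%) and TGANTCA in 6.75% (0.338%). These matches describe the letters of the windows, and no binding was measured.

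**Figure D1:**
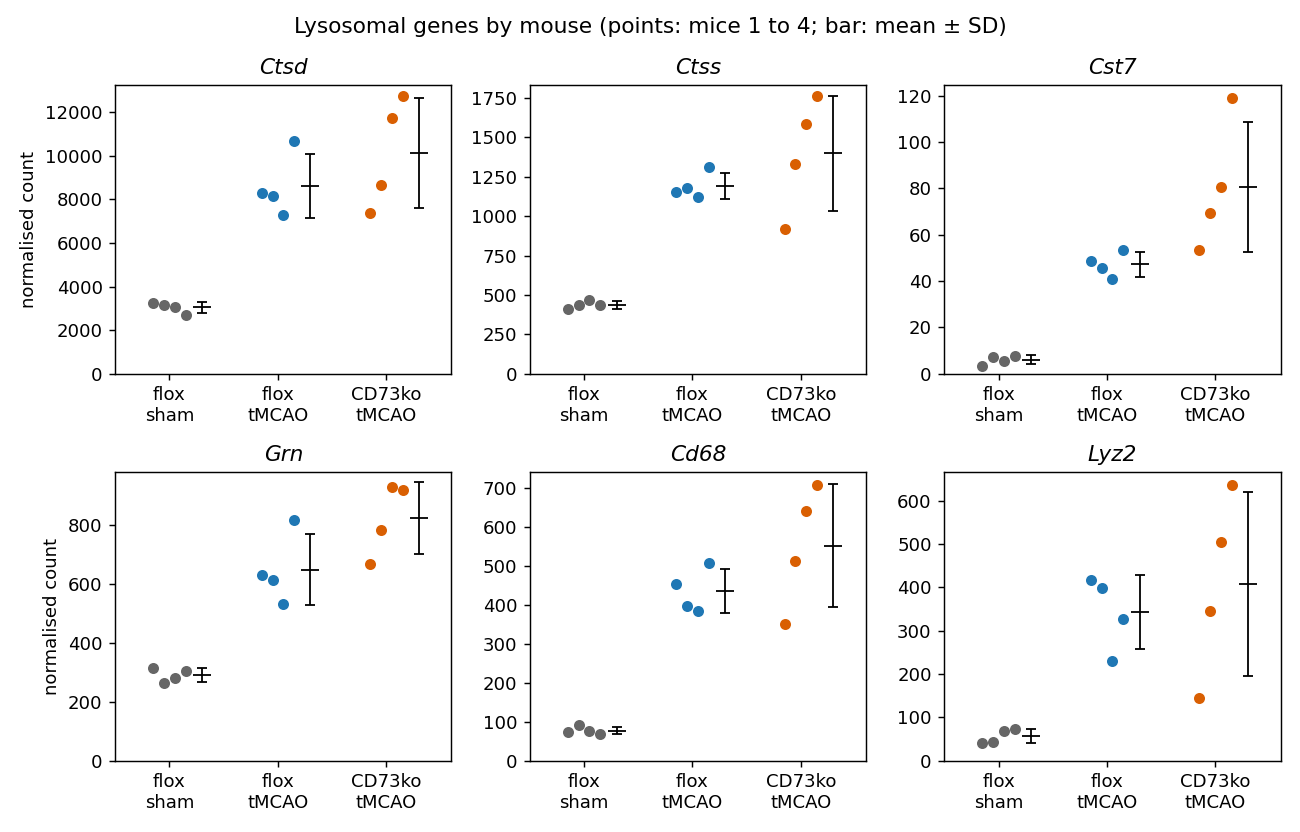
Normalised counts of the 6 lysosomal genes (y axis, from 0, a scale for each gene) in the 3 groups (x axis). Points are mice, replicates 1 to 4 from left to right, and bars are the mean ± SD of 4 mice. Every flox tMCAO and CD73ko tMCAO mouse lies above every sham for all 6 genes, while the groups after tMCAO overlap each other.

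The first comparison asked how the genes differed between sham surgery and tMCAO in flox mice. All 6 were higher after tMCAO, and no flox tMCAO mouse overlapped a sham for any of them. The rises ranged from 2.24-fold for Grn to 6.30-fold for Lyz2 among the genes that the shams expressed above background. Cst7 was below background in every sham and clearly counted after tMCAO. These are bulk tissue RNA levels, so more cells of a type and more RNA per cell cannot be told apart.

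Of the proteases, Ctsd encodes cathepsin D, an aspartic protease that degrades proteins in the lysosome of nearly every cell. Its normalised counts in sham replicates 1 to 4 were 3271, 3165, 3085 and 2688, and in flox tMCAO replicates 1 to 4 they were 8293, 8155, 7275 and 10687. The lowest flox tMCAO mouse, replicate 3, was well above the highest sham. The group means were 3052 ± 255 and 8603 ± 1461 (SD, n = 4), a log2 fold change of 1.49 ± 0.16 (SE, edgeR's quasi-likelihood test, adjusted p = 9.29e-06).

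Ctss encodes cathepsin S, a cysteine protease of phagocytes and antigen-presenting cells that trims the invariant chain of class II molecules. Its normalised counts were 410.4, 436, 471 and 434 in the shams and 1150.5, 1179, 1122 and 1309.6 after flox tMCAO. The 4 flox tMCAO mice lay close together, with the highest 1.17 times the lowest, and far above the shams. The means were 438 ± 24.9 and 1190.2 ± 83.0 (SD, n = 4), and the log2 fold change was 1.44 ± 0.15 (SE, edgeR, adjusted p = 9.37e-06).

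Cst7 encodes cystatin F, an inhibitor of cysteine cathepsins that is targeted to lysosomes in immune cells. The raw counts in the shams were 4, 8, 6 and 3, all below the background limit of their own library. The normalised counts after flox tMCAO were 48.8, 45.8, 40.7 and 53.6, against 3.55, 7.46, 5.41 and 7.61 in the shams. All 4 flox tMCAO mice were above background, and none came near a sham. With the shams set at their background limit, Cst7 was at least 3.51-fold higher after tMCAO (edgeR on the counts, adjusted p = 1.43e-05), and at least 2.85-fold higher with a limit of the mean plus 3 SD. Its level in a sham brain therefore has an upper bound here and no measured value.

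Grn encodes progranulin, a secreted glycoprotein that is delivered to lysosomes and cut there into granulins. Its normalised counts were 315.5, 262, 281 and 304 in the shams and 631, 614, 530.3 and 818 after flox tMCAO. Replicate 4 was the highest flox tMCAO mouse and replicate 3 the lowest, and both were above all shams. The means were 290.8 ± 23.9 and 648 ± 121 (SD, n = 4), a log2 fold change of 1.16 ± 0.13 (SE, edgeR, adjusted p = 2.06e-05).

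Cd68 encodes a heavily glycosylated membrane protein of late endosomes and lysosomes that is widely used to stain activated phagocytes. Its normalised counts were 74.5, 90.4, 74.9 and 68.5 in the shams and 452, 398, 384 and 507 after flox tMCAO. The shams formed a narrow low group and the flox tMCAO mice a separate high one. The means were 77.1 ± 9.39 and 435 ± 56.0 (SD, n = 4), and the log2 fold change of 2.47 ± 0.20 (SE, edgeR, adjusted p = 2.13e-06) was the 10th highest of the 757 genes.

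Lyz2 encodes the lysozyme of macrophages and neutrophils, which cuts the cell wall of bacteria. Its normalised counts were 40.8, 43.8, 69.5 and 73.5 in the shams and 417, 399, 231 and 326 after flox tMCAO. Both groups were uneven, with replicates 3 and 4 higher than 1 and 2 among the shams and lower among the flox tMCAO mice, and they did not overlap. The means were 56.9 ± 17.0 and 343 ± 84.6 (SD, n = 4), a log2 fold change of 2.65 ± 0.40 (SE, edgeR, adjusted p = 0.000239). Lyz1, a near-identical copy of Lyz2, has no row in the counts used here, so whether the Lyz2 probe also caught its RNA was not tested.

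Of all 757 genes, 14.1% were called higher by edgeR in this comparison, against 6 of 6 lysosomal genes. Without overlap between the groups 14.5% were higher, against 6 of 6. As the 6 were chosen with earlier results of these data known, this contrast is a description. The median log2 fold change was 1.98 over the 6 genes and -0.01 over all 757 genes. Over all genes the calls were 107 higher and 60 lower, and they were 92 higher and 92 lower when the libraries were scaled on the 13 housekeeping genes and 97 higher and 105 lower when scaled on their medians, while the 6 genes stayed called higher under both. All 6 were also called with any 1 of the 8 mice left out.

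Because a ratio of 2 genes within a library needs no scaling, the size of the rises was compared through the log2 ratio of each pair of genes (log2 of count + 1). The 6 genes did not rise by the same amount: Cd68 and Lyz2 rose more than Ctsd, Ctss and Grn, and Grn rose less than Ctsd. The ratio of Ctsd to Cd68 was 5.29 ± 0.14 in the shams and 4.30 ± 0.09 after flox tMCAO (SD, n = 4), a difference of -0.99. The ratio of Grn to Lyz2 changed from 2.37 ± 0.45 to 0.94 ± 0.38 (SD, n = 4), a difference of -1.44. The log2 ratio of Ctsd to Ctss, the cathepsins, differed by 0.04 between the groups (exact permutation p = 0.657), and Cd68 and Lyz2 differed from each other by -0.10 (exact permutation p = 0.657). Neither p shows that the members of a pair rose equally. Ctsd rose more than Grn by 0.35, from 3.39 ± 0.19 in the shams to 3.73 ± 0.03 after flox tMCAO (SD, n = 4).

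Among the 10 pairs without Cst7, 7 did not overlap between the groups and 3 did. Over all 15 pairs, 10 passed with an exact 2-sided permutation p of 0.0286, the smallest that 4 against 4 mice allow, and an adjusted p of 0.0429. With Cst7 set at its background limit in the shams, an alternative chosen after seeing the data, or with 10 added to each count, no pair passed (adjusted p 0.0536 and 0.0714 at the smallest), since fewer pairs then reached the smallest p. Where Cst7 stands among the other members could not be settled, as its log2 ratio to Cd68 rose by 0.31 with the counts as deposited and fell by 0.69 with the shams at the limit.

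The panel measured 17 more genes of a list of lysosomal proteases, inhibitors, membrane proteins, hydrolases and proton pump subunits, and 7 of these 17 were called higher and 0 lower in flox tMCAO against flox sham. Their median log2 fold change was 0.17. The largest rise was that of Gpnmb, a glycoprotein of phagocyte lysosomes and melanosomes, from 35.4 ± 4.23 to 335 ± 83.5 normalised counts (SD, n = 4; log2 fold change 3.22 ± 0.40, edgeR adjusted p = 3.56e-05). Of the other proteases, Ctsl rose by 1.10 ± 0.15, Lgmn, the asparagine-cutting legumain that processes cathepsins, by 0.94 ± 0.11 and Ctsb by 0.74 ± 0.12 (log2, SE, edgeR adjusted p from 2.78e-05 to 0.000477). The RNA of 2 lysosomal membrane proteins moved less, with Lamp2 higher by 0.34 ± 0.06 and Lamp1 by 0.20 ± 0.06 (log2, SE, edgeR adjusted p = 0.00107 and 0.0264).

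The other 10 did not pass, with log2 fold changes between -0.24 and 0.20. Ctsf, a cysteine cathepsin, gave 0.07 ± 0.10 (log2, SE, edgeR adjusted p = 0.683). Ctsw, a cathepsin of killer lymphocytes, was counted near the background at 15.6 ± 6.80 in the shams and 12.95 ± 6.97 after flox tMCAO (normalised counts, SD, n = 4). Cst3, the secreted inhibitor cystatin C, gave 0.15 ± 0.07 (log2, SE, edgeR adjusted p = 0.131), in contrast to the appearance of Cst7 counts. The 4 listed subunits of the proton pump that acidifies lysosomes, Atp6v0d1, Atp6v1a, Atp6v1b2 and Atp6v1h, lay between -0.14 and 0.03. The panel also measured other subunits of this pump, which were not on the list and are not described here.

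**Figure D2:**
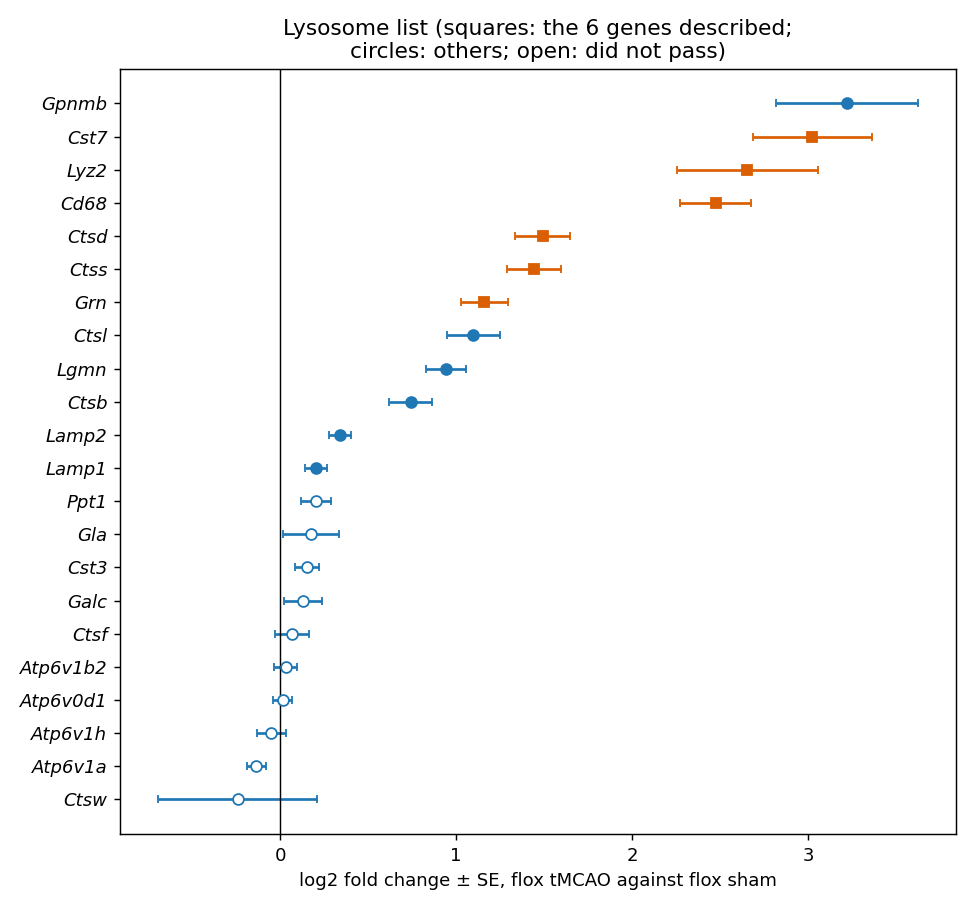
Log2 fold change of flox tMCAO against flox sham (x axis, edgeR, bars ± SE) for measured genes of the lysosome list (y axis), with 1 gene not shown. Squares are the 6 genes described and circles the others, filled where the test was passed. Of those shown, Gpnmb and the 6 genes described lie furthest to the right, the proton pump subunits and Ctsf lie near 0, and Ctsw has the lowest value with a wide error. The value of Cst7 is the fitted one, with shams below background.

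Markers carried by microglia and other myeloid cells moved with the 6 genes. All 5 pan-myeloid markers were called higher by edgeR in flox tMCAO, with log2 fold changes of 0.64 for Csf1r, 0.72 for Cx3cr1, 1.10 for Itgam, 1.12 for Ptprc and 1.19 for Aif1. Their summed level was 565 to 658 normalised counts in the shams and 748 to 1385 after flox tMCAO, lowest in replicate 3 and highest in replicate 4. Of 9 measured homeostatic microglia markers 3 were called higher, and the sums were 820 to 1027 and 883 to 1726. The median log2 fold change of the 9 was 0.14. Fcrls led the sums after flox tMCAO, at 388 ± 97.6 against 103.6 ± 14.6 in the shams (normalised counts, SD, n = 4). P2ry12 led them in the shams, at 199 ± 39.0, and was not called, at 234 ± 78.2 after flox tMCAO. Of 13 listed monocyte and macrophage markers the panel measured 2, whose sums were 47.5 to 60.9 and 138 to 171, with Cd84 higher by 1.98 ± 0.26 and Cd163 at 0.01 (log2, edgeR). The neutrophil marker Csf3r, the single one of 11 that was measured, was not called, at 20.3 to 30.1 and 23.3 to 47.9. Of 12 lymphocyte markers, 3 were above background in 3 or more mice of a group. The sums of the 12, 149 to 189 and 102 to 162, therefore hold counts near background and do not measure lymphocytes. Of the 12, 0 were called higher and 1 lower, Cd4, at 40.6 ± 4.79 and 27.1 ± 6.29 normalised counts (SD, n = 4). Its log2 fold change was -0.60 ± 0.20 (SE, edgeR adjusted p = 0.0419). Of the 6 endothelial markers 3 were called higher and 0 lower. Their sums, led by Cldn5, which was not called, were 773 to 880 and 885 to 1146. No measured marker was at 0 in every mouse of a group. The part that the number of myeloid cells has in the rises was not tested.

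To set each gene against cells of this lineage in the same library, the mean log2 count of the 5 pan-myeloid markers was subtracted from the log2 count of the gene. Among these markers, Ptprc was counted near the background in the shams, at 16.6 ± 6.47 normalised counts (SD, n = 4). The ratios without Ptprc in the reference were not computed. Cd68 rose beyond the markers by 1.57, from -0.09 ± 0.12 to 1.48 ± 0.24, and Lyz2 by 1.67, from -0.56 ± 0.50 to 1.11 ± 0.25 (log2, SD, n = 4). Ctsd rose beyond them by 0.58 and Ctss by 0.53. Cst7 rose by 1.87 with the counts as deposited and by 0.87 with the shams at the background limit. Grn did not separate: its ratios were 1.91, 1.57, 1.87 and 1.89 in the shams and 1.82, 1.95, 2.29 and 2.09 after flox tMCAO, a difference of 0.23 (exact permutation p = 0.171).

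The ratio was higher without overlap for 5 of the 6 genes and for 3.96% of all 757 genes. Each of the 5 had an exact 2-sided permutation p of 0.0286, the smallest that 4 against 4 mice allow. Here too the contrast describes genes chosen with earlier results known. Because the markers themselves rose, 481 of the 757 genes were lower without overlap on this ratio. With the 9 homeostatic microglia markers as the reference, 51 of the 757 were higher and 62 lower without overlap. The call for Ctss was lost when the mean of the negative control probes was subtracted (0.43, exact p = 0.0571), and Grn separated when the reference was the homeostatic microglia markers (0.74) or 10 was added to the counts (0.35, both exact p = 0.0286). Without flox tMCAO replicate 1, Grn was also higher in every flox tMCAO mouse than in every sham.

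**Figure D3:**
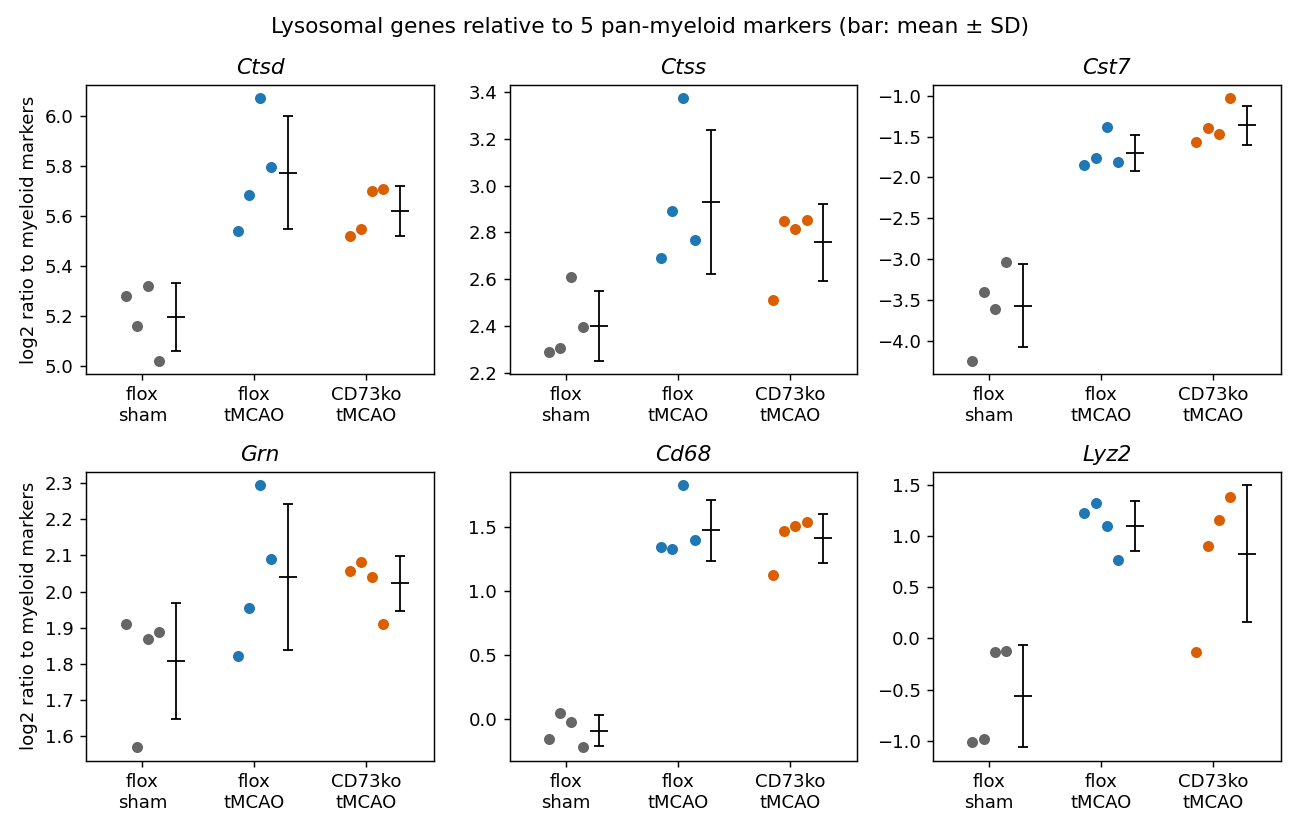
Log2 ratio of each lysosomal gene to the mean of 5 pan-myeloid markers in the same library (y axis, a scale for each gene, not from 0) in the 3 groups (x axis). Points are mice, replicates 1 to 4 from left to right, and bars are the mean ± SD of 4 mice. Cd68, Lyz2 and Cst7 separate flox tMCAO from sham by the widest gaps, and Grn overlaps.

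The comparison of CD73ko with flox mice, both after tMCAO, asked whether levels after the same surgery differ between the genotypes. Whether the response to surgery differs was not tested, as there were no CD73ko shams. No member was called, and every gene overlapped between the genotypes, although all 6 means were higher in CD73ko mice. In CD73ko replicates 1 to 4 the normalised counts of Ctsd were 7370.1, 8641, 11723 and 12751, and those of Ctss were 916, 1331, 1586 and 1759.98. Replicate 1 was below the flox tMCAO mean for both genes, while replicates 3 and 4 were above every flox tMCAO mouse. The log2 differences, CD73ko minus flox, were 0.23 for Ctsd (95% interval -0.09 to 0.56) and 0.23 for Ctss (-0.07 to 0.54), with edgeR adjusted p = 0.822 for both.

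Cst7 had the largest difference of the members. Its normalised counts in CD73ko replicates 1 to 4 were 53.4, 69.5, 80.6 and 118.9, and the mean of 80.6 ± 27.9 compared with 47.2 ± 5.40 in flox tMCAO mice (SD, n = 4). Replicate 1 lay just under flox tMCAO replicate 4, at 53.6, and the other CD73ko mice lay above all flox tMCAO mice. The log2 difference was 0.77 (95% interval 0.31 to 1.23), the 3rd highest of the 757 genes, with an edgeR adjusted p of 0.747 (0.00287 unadjusted).

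For Grn the CD73ko counts were 668, 781, 927 and 917, with a log2 difference of 0.35 (95% interval 0.08 to 0.61, edgeR adjusted p = 0.747). For Cd68 they were 349.6, 512, 640.1 and 708, with a difference of 0.34 (-0.01 to 0.70, edgeR adjusted p = 0.786). CD73ko replicate 1 was the lowest of all 8 mice after tMCAO for Cd68 and the second lowest for Ctsd. For Lyz2 they were 145, 346, 504 and 637, with a difference of 0.25 (-0.43 to 0.93, edgeR adjusted p = 0.850). For Lyz2 the range of the CD73ko mice took in all 4 flox tMCAO mice.

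Of the 757 genes, 0.0% were called in either direction in this comparison, as were 0 of the 6, and 2.77% were higher without overlap, against 0 of the 6. At an unadjusted p under 0.05, edgeR gave 47 genes with Cst7 and Grn among them, DESeq2 39 and limma 37, and neither of the other tools called a gene after adjustment. The median log2 difference was 0.30 over the 6 genes, 0.05 over the 17 other lysosomal genes and 0.03 over all genes. The pan-myeloid markers had a median of 0.32, and their summed level was 1087 in CD73ko replicate 1 and reached 1495 in replicate 4, against 748 to 1385 in flox tMCAO mice. On the ratio to these markers 0 of the 6 were higher without overlap, as were 0.132% of all genes. The differences of the ratio were -0.15 for Ctsd, -0.17 for Ctss, -0.02 for Grn, -0.06 for Cd68, -0.27 for Lyz2 and 0.34 for Cst7 (exact permutation p = 0.114 for Cst7). Without flox tMCAO replicate 3, Cst7 no longer overlapped on this ratio. The sizes of the members' differences changed with single mice. Without CD73ko replicate 4, Lyz2 reversed to -0.050, Ctsd and Ctss fell to 0.10 each and Cst7 to 0.52. Without CD73ko replicate 1, Cst7 rose to 0.90, Lyz2 to 0.51, Ctss to 0.36 and Cd68 to 0.49, with a smallest adjusted p of 0.107.

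**Figure D4:**
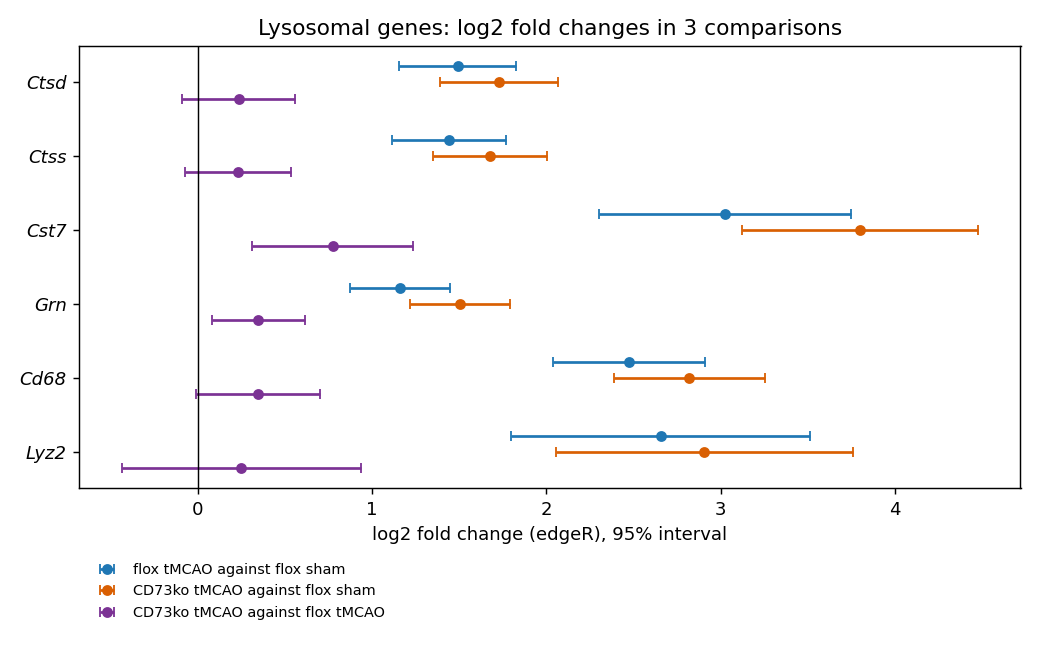
Log2 fold changes of the 6 lysosomal genes (y axis) with 95% intervals (x axis, edgeR) in the 3 comparisons, by colour. The intervals of both comparisons with sham lie above 0 for every gene. Between the genotypes the interval includes 0 for Ctsd, Ctss, Cd68 and Lyz2 and not for Cst7 and Grn, and no difference passed the adjusted test.

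CD73ko tMCAO mice were also compared with flox shams, from which they differ in both genotype and surgery, using the same shams and the same CD73ko mice as above. All 6 genes were called higher and none overlapped. The log2 fold changes were 1.73 ± 0.16 for Ctsd, 1.67 ± 0.15 for Ctss, 1.51 ± 0.13 for Grn, 2.82 ± 0.20 for Cd68 and 2.91 ± 0.40 for Lyz2 (SE, edgeR, adjusted p from 6.84e-07 to 6.11e-05). Cst7 was at least 5.72-fold higher, with the shams at their background limit (edgeR on the counts, adjusted p = 8.45e-07). In this comparison 16.1% of all genes were called higher and 16.9% were higher without overlap, against 6 of 6 in both cases. The median was 2.27 over the 6 genes and 0.00 over all genes, and the same number of other lysosomal genes, 7 of 17, was called higher. The calls over all genes were 122 higher and 50 lower, 101 and 100 with housekeeping scaling, 104 and 118 with median scaling and 117 and 76 with DESeq2 size factors, and they fell from 172 to 110 without CD73ko replicate 3.

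The genes differed in how much they varied between mice of 1 group. After flox tMCAO the highest mouse exceeded the lowest by 1.17 times for Ctss and 1.81 times for Lyz2, with the other 4 genes between. Among CD73ko mice the ratio was 1.39 for Grn, 1.73 for Ctsd, 1.92 for Ctss, 2.02 for Cd68, 2.23 for Cst7 and 4.39 for Lyz2. The order of the CD73ko mice was nearly the same for all genes: replicate 1 was the lowest and replicate 2 the next for 6 of 6, and replicate 4 was the highest for 5, with replicate 3 the highest for Grn. Among flox tMCAO mice replicate 3 was the lowest for 6 of 6 and replicate 4 the highest for 5, with replicate 1 the highest for Lyz2.

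**Figure D5:**
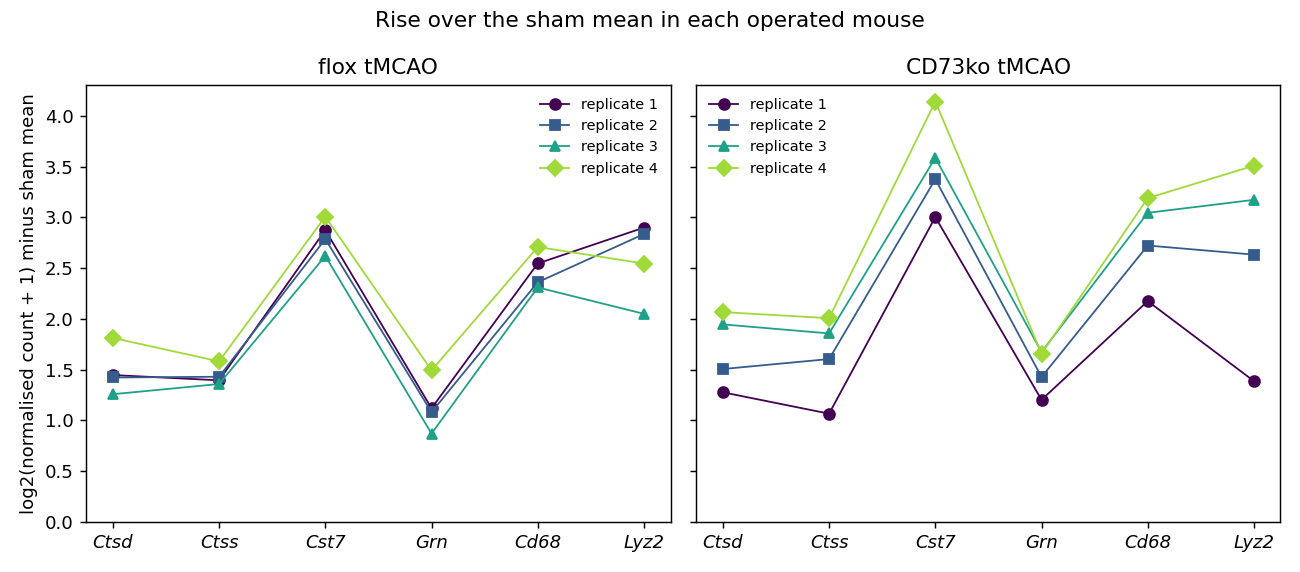
Level of each lysosomal gene (x axis) in each mouse after tMCAO as log2(normalised count + 1) minus the sham mean (y axis), with a line for each mouse. The left panel shows flox and the right panel CD73ko mice. The CD73ko lines keep nearly the same order from gene to gene, with replicate 1 at the bottom, and Lyz2 fans out most. For Cst7 the sham mean is below background.

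Over the 8 mice after tMCAO of both genotypes, the levels of the 6 genes rose and fell together. Of 15 pairs, 13 passed after Benjamini-Hochberg adjustment, with Pearson r from 0.77 to 0.97 and Spearman rho from 0.76 to 0.98 (exact permutation, adjusted p from 0.00093 to 0.0249 for r and at most 0.0424 for rho). Ctss and Cd68 were the closest pair (r = 0.97, rho = 0.98, exact permutation p = 0.000124). The pairs that did not pass were Grn with Lyz2 (r = 0.58, rho = 0.52, exact permutation p = 0.135) and Cst7 with Lyz2 (r = 0.63, rho = 0.57, exact permutation p = 0.0964). With the group means subtracted, 14 pairs passed by either measure. Without the 2 mice farthest from the median of the first gene, which leaves 6, 1 pair passed by r (Ctss with Cst7, r = 0.94) and 0 by rho. There r stayed high for Ctss with Cd68 (0.96), Ctss with Grn (0.94) and Grn with Cd68 (0.86), and was lower for Ctsd with Cst7 (0.40), Cst7 with Cd68 (0.59) and every pair with Lyz2 (0.08 to 0.64). Without CD73ko replicate 4, 8 pairs passed by r and 5 by rho, and without CD73ko replicate 3 these were 10 and 5. All values of a mouse share its library and its scaling. The pan-myeloid sums followed a similar order in CD73ko mice, lowest in replicate 1 and highest in replicate 4. In flox tMCAO mice they were lowest in replicate 3 and highest in replicate 4. How many pairs of other genes would pass was not computed, so the likeness is not shown to be particular to the 6 genes.

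Across all 12 mice, the genes whose levels were most like those of the 6 were looked for among 706 endogenous genes above background, as a description in which the step from sham to tMCAO carries much of the likeness. The 3 closest genes to Ctsd were C1qb (r = 0.993, and 0.92 with group means subtracted), C1qc (0.993 and 0.92) and C1qa (0.991 and 0.89), which encode the chains of complement C1q, made by microglia in the brain. The same chains were closest to Cd68, as C1qa (0.995 and 0.91), C1qc (0.995 and 0.90) and C1qb (0.991 and 0.88). Ctss was closest to C1qa (0.994 and 0.94), Lgmn (0.994 and 0.94) and C1qb (0.994 and 0.93). Cst7 was closest to the Fc receptor-like gene Fcrls (0.984 and 0.76), C1qa (0.979 and 0.64) and Lgmn (0.978 and 0.78), and its likeness fell more than that of the others once group means were subtracted. Among the closest to Grn were the Fc receptor gene Fcgr1 (0.987 and 0.82) and the lipid-sensing receptor gene Trem2 (0.984 and 0.87). Lyz2 was closest to Tyrobp, which encodes the signalling partner of TREM2 (0.984 and 0.94), Gpnmb (0.979 and 0.88) and Lgmn (0.978 and 0.89).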

How the data were processed

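RNA of whole brain from 12 mice was counted with an nCounter panel. The values used are the raw counts that the authors deposited in the series' value table; how images became counts is not given in the sources used here. The values of 11 sample columns in each of 2 further deposited tables were not used, since their names match no sample label. From the counts, edgeR 4.0.16 (R 4.3.3; TMM over 757 endogenous genes, 1 quasi-likelihood fit over all 12 mice, Benjamini-Hochberg over 757 genes, threshold 0.05) gave the tests, with limma 3.58.1 and DESeq2 1.42.0 as alternatives; SE was taken from the fold change and its F statistic, with 14.4 degrees of freedom for 95% intervals. The scripts were tested on simulated data. Exact permutation tests (numpy 2.4.6) were 2-sided, with Benjamini-Hochberg adjustment and ranks from scipy 1.17.1. Means are ± SD over mice; counting error is covered by that spread, and the number of mice limits the precision.

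The members and gene lists were chosen with earlier results of these data known. Named besides the 6 members are lysosome-list genes called in flox tMCAO against sham, every measured cathepsin and cystatin, the 3 most correlated genes of each member, and the most abundant marker of each cell type list; 2 genes that this rule takes in are not reported here. Of 770 gene symbols, 765 matched the RefSeq table (GRCm38.p6), as did all 6 members. The 13 housekeeping genes, among them Gusb, were not tested. Same-numbered mice of different groups did not deviate together (correlations between -0.25 and 0.17), so replicate numbers were not used to pair mice. The most alike pair of libraries within a group still differed beyond counting noise (chi-square over its degrees of freedom, 1.75).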

Additional observations from a re-analysis of the deposited data

How the results depend on the processing

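The 6 lysosomal genes were called higher in both comparisons with sham under every alternative tried: other scalings, DESeq2, limma, a background filter or subtraction, 2 groups alone, a replicate block, and each mouse left out. No alternative called a gene between the genotypes. Replicate numbers as a block, which did not pair the mice, gave 145 genes called in place of 167 for flox tMCAO against sham, 0 in place of 0 between genotypes and 146 in place of 172 for CD73ko against sham, with 6, 0 and 6 members. In each comparison 2 to 3 of 8 mice correlated best with their own number. Leaving out 1 mouse moved the genes called in CD73ko tMCAO against sham between 110 and 229, the members' correlations that passed between 8 and 14 by r and between 5 and 13 by rho, and the myeloid ratios separating the genotypes between 0 and 1, the latter without flox tMCAO replicate 3. The log2 difference of Lyz2 between genotypes ran from -0.050 without CD73ko replicate 4 to 0.51 without replicate 1, and was 0.09 with limma and 0.12 with the block. Of the 10 pair ratios, 0 passed with a pseudocount of 10 and 0 with Cst7 at its limit, since fewer pairs reached the smallest p. Of the 13 correlations, 1 passed by r and 0 by rho without the 2 farthest mice, which leaves fewer mice, and 7 passed by rho with scaling on the sample median. Cst7 in the shams is limited by background in all 4 libraries, of which replicate 4 is the shallowest.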
